A study of Mus musculus with 37 samples.

Results

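Small RNA and transposon silencing genes were followed through the meiotic maturation of single mouse oocytes. They were chosen by gene symbol from the endogenous small interfering RNA (endo-siRNA) and PIWI-interacting RNA (piRNA) pathways and number 10 of the 54752 genes listed, spike-in sequences left out: Dicer1, Ago1, Ago2, Ago3, Piwil2, Ddx4, Mov10l1, Mael, Tdrkh and Pld6. In the endo-siRNA pathway, the enzyme Dicer cuts long double-stranded RNA into short RNAs, which argonaute proteins carry to matching transcripts. In the piRNA pathway, single-stranded precursors are cut and trimmed at the surface of mitochondria and in germ granules, then loaded onto PIWI proteins that silence transposons in the germ line. Mouse oocytes are known for their dependence on endo-siRNAs and for a short form of Dicer that starts from a retrotransposon promoter within a Dicer1 intron, whereas loss of most piRNA pathway genes mainly harms male germ cells in this species.

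All oocytes came from C57BL/6 females aged 6 to 8 weeks that had received 5 IU of pregnant mare serum gonadotropin (PMSG). Oocytes with an intact germinal vesicle (GV), the stage of prophase arrest, came from ovaries opened 48 h after this dose. Oocytes at metaphase II (MII), the mature egg, had ovulated: 5 IU of human chorionic gonadotropin (hCG) followed PMSG by 48 h, and 15 h later they were recovered from the oviduct ampulla. Oocytes at metaphase I (MI) were GV oocytes harvested after 8 h of culture in M16 medium, so that this stage was reached in vitro. The oocytes were handled in medium with hyaluronidase, freed of the zona pellucida with acid and of the polar body by pipetting, and made into Smart-seq2 libraries (full-length cDNA of 1 cell) read as 150-base pairs. According to the labels, batch A consisted of 6 GV oocytes and 6 MII oocytes, and batch B of 10 GV oocytes and 15 MI oocytes. Stage was therefore compared within a batch, and MI and MII oocytes, which never share one, cannot be told apart from their batches when set against each other.

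The expected counts assigned to genes by RSEM ranged from 7509875 to 12648629 per GV oocyte and from 9930485 to 13988444 per MII oocyte in batch A. In batch B they ranged from 7184205 to 17724506 per GV oocyte and from 2709280 to 19390128 per MI oocyte. A few oocytes stood apart. MII oocyte 1 had counts for 29518 genes, against a median of 20264.5 in its group, and MI oocyte 15 had the lowest depth and 12505 genes with counts. The HTSeq count of Dicer1 was 1.98 to 2.32 times its RSEM count in most oocytes, but 1.27, 1.23 and 1.19 times in MI oocytes 4, 8 and 9. Results of batch B were therefore also computed without these MI oocytes, and those of batch A without each oocyte in turn. Neither the labels nor the methods say which oocytes came from the same female, so every p-value below measures the spread between these oocytes, which may be smaller than the spread between animals.

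The label of the cells was checked against marker genes. All 12 oocyte markers had counts in each group, with Gdf9, a growth factor secreted by the oocyte, the highest of them in mean CPM per kilobase except in GV oocytes of batch A, where Zp3 was higher. Their summed level was 8870 to 13164 CPM (counts scaled to library size) in GV oocytes and 6459 to 7915 CPM in MII oocytes of batch A. In batch B it was 3775 to 7116 CPM in GV oocytes and 3454 to 5858 CPM in MI oocytes. The 19 cumulus and granulosa markers, which belong to the cells around the oocyte, summed to 153 to 187 CPM in GV and 195 to 250 CPM in MII oocytes of batch A, without overlap, and to at most 151 CPM in batch B. Most of it was Serpine2, with a log2 fold change to MII of 0.56 (SE 0.12, edgeR adjusted p 0.00465), under 2-fold. Ptx3 was at 0 in GV oocytes of batch A, and Amh, Foxl2 and Ptx3 were at 0 in both groups of batch B. Blood and immune markers summed to at most 13.7 CPM and male germ cell markers to at most 42.3 CPM, most of it Ddx25, with Prm1 and Tnp1 at 0 in both groups of batch A. Between GV and MI oocytes, 2 of the 6 tested cumulus and granulosa markers fell, Ccnd2 with a log2 fold change of −3.69 (SE 0.68, edgeR adjusted p 0.0174) and Gja1 with −3.42 (SE 0.62, edgeR adjusted p 0.0174). Neither was called with HTSeq counts (adjusted p 0.528 and 0.263), which gave 0 calls among all 12441 genes tested. What share of the values below came from such cells was not tested.

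Levels of different genes were compared per length, as CPM per kilobase of transcript, summed over all transcripts of a gene. In this sum a count on a short transcript weighs more than one on a long transcript. The main coding transcripts of Ago3 and Ago2 have 15595 and 13800 bases, but both genes also have transcripts without a coding sequence of 613 to 690 bases. The order below is therefore not that of the coding transcripts, which was not computed. In GV oocytes of batch A, Dicer1 (31.7 ± 10.6 CPM per kilobase, SD, n = 6), Tdrkh (31.6 ± 3.90) and Ago3 (28.2 ± 5.44) had the highest sums and did not differ beyond their spread. Mael (14.5 ± 2.77 CPM per kilobase), Ddx4 (13.6 ± 7.15) and Ago2 (10.3 ± 3.08) followed, again with overlapping ranges but all below the 3 leading genes in mean. Mov10l1 (2.27 ± 1.29 CPM per kilobase) and Pld6 (1.87 ± 0.81) lay lower, and Piwil2 (0.449 ± 0.327) and Ago1 (0.0602 ± 0.0490) lowest. The ranges of neighbours in this order were separate at only 2 places, between Ago3 and Mael and between Ago2 and Mov10l1. In MII oocytes the order in CPM per kilobase was Dicer1 (35.0 ± 9.99), Ago3 (31.1 ± 9.05), Tdrkh (30.6 ± 7.98), Mael (10.7 ± 5.07), Ddx4 (9.37 ± 1.51), Ago2 (7.18 ± 1.20), Mov10l1 (2.80 ± 0.63), Pld6 (2.32 ± 1.03), Piwil2 (0.146 ± 0.0994) and Ago1 (0.105 ± 0.104). Here neighbours were separate between Tdrkh and Mael, Ago2 and Mov10l1, and Pld6 and Piwil2.

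In batch B, Dicer1 and Tdrkh again led, with 45.4 ± 11.9 and 39.6 ± 6.04 CPM per kilobase in GV oocytes (SD, n = 10) and 56.2 ± 13.0 and 46.2 ± 12.6 in MI oocytes (SD, n = 15). Ago3 stood lower in the order than in batch A, with 18.6 ± 5.46 CPM per kilobase in GV oocytes and 18.2 ± 6.35 in MI oocytes, beside Ddx4 with 19.2 ± 5.77 and 19.6 ± 7.22. Then came Ago2 (11.4 ± 4.40 CPM per kilobase in GV and 10.2 ± 4.68 in MI oocytes), Mael (7.26 ± 2.46 and 5.15 ± 3.56), Mov10l1 (3.99 ± 2.54 and 3.17 ± 2.13), Pld6 (1.63 ± 2.39 and 1.28 ± 1.29), Piwil2 (0.397 ± 0.457 and 0.602 ± 0.877) and Ago1 (0.0930 ± 0.159 and 0.0880 ± 0.136). Among neighbours in this order, only Tdrkh and Ddx4 in GV oocytes had separate ranges, and in MI oocytes none had.

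**Figure D1:**
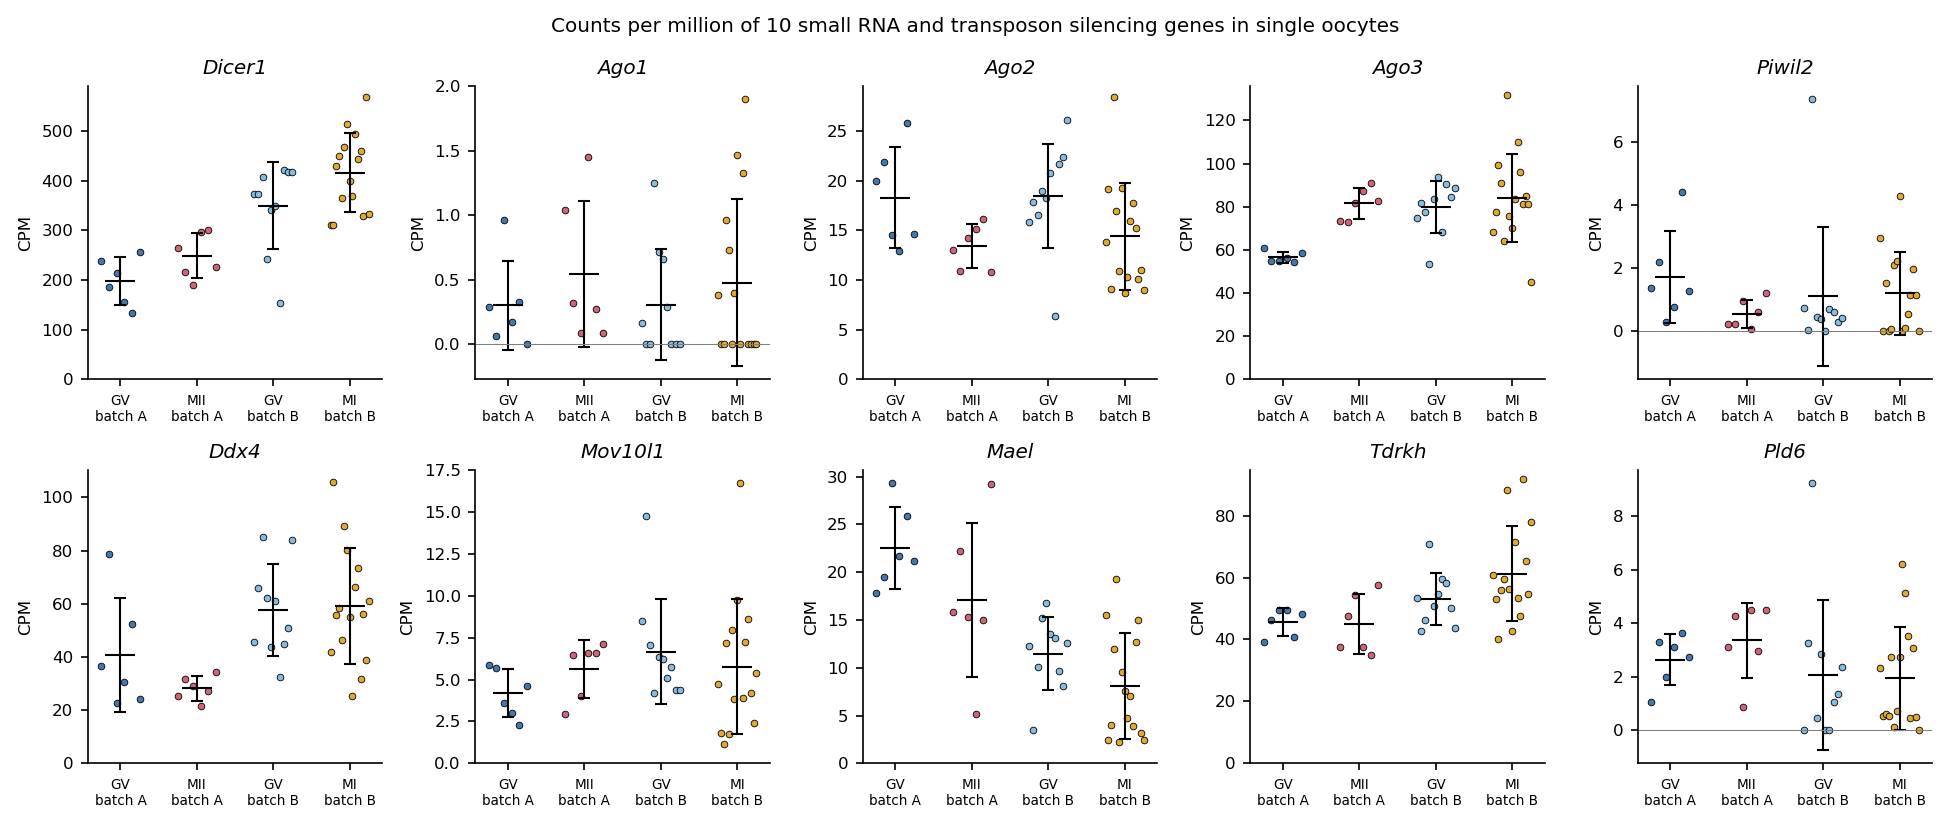
Level of each of the 10 genes in single oocytes (vertical axis, CPM; points, oocytes; horizontal bars, group means with the SD) in GV and MII oocytes of batch A and GV and MI oocytes of batch B. The 6 MII oocytes lie above the 6 GV oocytes of batch A for Ago3 at 73.1 to 91.0 against 54.1 to 61.0 CPM, a direction that turns under spike-in scaling, and the 10 GV oocytes of batch B lie below the 6 of batch A for Mael.

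The comparison of GV with MII oocytes in batch A asks which of these transcripts differ between the arrested oocyte and the mature egg. None of the 9 genes tested passed the test for a change over 2-fold. Ago3 was higher and Ago2, Piwil2 and Ddx4 were lower at an unadjusted p under 0.05, and of these Ago3 alone passed the adjusted p. Without the filter on low counts Ddx4 passed it (0.0309) and Ago3 did not (0.105), nor did Ago3 with replicate number as a block (0.0541). Dicer1, the enzyme that makes endo-siRNAs and microRNAs (Ensembl ENSMUSG00000041415.10, GRCm38 chr12:104687742-104751952, minus strand), was at 133, 200 and 256 CPM in the lowest, median and highest GV oocyte and at 190, 245 and 300 CPM in MII oocytes. Its groups overlapped, with 3 of 6 MII oocytes above every GV oocyte. The log2 fold change was 0.29 (SE 0.17, edgeR adjusted p 0.238).

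The argonautes differed from one another in level. Ago3, which carries small RNAs mostly without cutting their targets (ENSMUSG00000028842.15, chr4:126331704-126429556, minus strand), had a lowest, median and highest value of 54.1, 55.5 and 61.0 CPM in GV oocytes and 73.1, 82.1 and 91.0 CPM in MII oocytes. All 6 MII oocytes lay above all 6 GV oocytes in CPM, whereas the groups overlapped in CPM per kilobase. The log2 fold change was 0.47 (SE 0.11, edgeR adjusted p 0.00780), below the 2-fold threshold, and turned to −0.28 (adjusted p 0.333) when libraries were scaled by their spike-ins. Ago2, the argonaute that can cut a paired target (ENSMUSG00000036698.11, chr15:73095844-73184935, minus strand), ranged from 12.9 to 25.8 CPM with a median of 17.3 in GV oocytes, and from 10.8 to 16.1 CPM with a median of 13.6 in MII oocytes. The groups overlapped, no MII oocyte lay above the GV median, and the log2 fold change was −0.51 (SE 0.20, edgeR adjusted p 0.0847). Ago2 shares 1711 bases with Chrac1 on the other strand, and since the libraries do not mark the strand, reads there cannot be told apart. Chrac1 itself had a mean of 11.2 counts in batch A.

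Ago1, an argonaute next to Ago3 on the same strand (ENSMUSG00000041530.16, chr4:126435012-126468583), was close to absent. It had counts in 5 of 6 GV oocytes, with a median of 0.229 CPM and a highest value of 0.960 CPM, and in all 6 MII oocytes, with 0.0860, 0.297 and 1.45 CPM as lowest, median and highest. These values rest on means of 4.50 and 7.18 counts, and Ago1 was left out of the test by the filter on low counts. Where it had no counts, up to 3 counts remain possible at a confidence level of 95%, which covers counting error only.

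Of the piRNA pathway genes, Piwil2, the PIWI protein that binds piRNAs (ENSMUSG00000033644.5, chr14:70372477-70429383, minus strand), was at 0.300, 1.33 and 4.42 CPM in the lowest, median and highest GV oocyte and at 0.0723, 0.430 and 1.20 CPM in MII oocytes. No MII oocyte lay above the GV median, but the groups overlapped. The log2 fold change was −1.72 (SE 0.65, edgeR adjusted p 0.0704), on means of 25 and 6.8 counts. The result lay close to the threshold: it passed with DESeq2 (adjusted p 0.0446), without the filter (0.0476), without GV oocyte 3 (−1.94, 0.0405) and without MII oocyte 6 (−2.08, 0.0495). Without GV oocyte 5 it shrank to −1.13 (0.239), and over all alternatives the adjusted p ranged from 0.00327 with spike-in scaling to 0.443 with batch as a covariate.

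Ddx4, the RNA helicase of germ granules also known as mouse vasa homolog (ENSMUSG00000021758.14, chr13:112598333-112652475, minus strand), was at 22.6, 33.6 and 78.9 CPM in the lowest, median and highest GV oocyte and at 21.7, 28.1 and 34.4 CPM in MII oocytes. The GV oocytes spread widely, and the MII oocytes fell within or just under their range. Its log2 fold change was −0.60 (SE 0.27, edgeR adjusted p 0.122), and −0.31 without GV oocyte 2. Mael, a germ granule protein needed for transposon silencing in the male germ line (ENSMUSG00000040629.8, chr1:166201201-166238747, minus strand), was at 17.8, 21.5 and 29.3 CPM in GV oocytes and at 5.20, 15.5 and 29.3 CPM in MII oocytes. Of the 6 MII oocytes, 4 lay below every GV oocyte and the others among them, and the log2 fold change was −0.46 (SE 0.29, edgeR adjusted p 0.275), and −0.27 without MII oocyte 4.

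None of the 3 members that act in piRNA precursor processing passed the test. For Mov10l1, the helicase that binds piRNA precursors (ENSMUSG00000015365.15, chr15:88982909-89055152, plus strand), GV oocytes ranged from 2.31 to 5.89 CPM and MII oocytes from 2.97 to 7.14 CPM. Tdrkh, a Tudor domain protein that holds PIWI proteins at mitochondria (ENSMUSG00000041912.12, chr3:94413273-94434668, plus strand), ranged from 39.3 to 49.7 CPM and from 35.0 to 57.7 CPM. Pld6, a nuclease of the mitochondrial surface that cuts piRNA precursors (ENSMUSG00000043648.7, chr11:59783897-59787645, minus strand), ranged from 1.06 to 3.63 CPM and from 0.869 to 4.48 CPM. In all 3 genes the groups overlapped. Of the 6 MII oocytes, 4 lay above every GV oocyte for Mov10l1. For Tdrkh 2 lay above and 3 below every GV oocyte, and for Pld6 3 above and 1 below. The log2 fold changes were 0.37, −0.08 and 0.28 (SE 0.29, 0.15 and 0.38, edgeR adjusted p 0.385, 0.737 and 0.639). With 1 oocyte left out they ranged from 0.26 to 0.50 for Mov10l1, −0.16 to −0.02 for Tdrkh and 0.12 to 0.48 for Pld6, whose lowest value was without GV oocyte 1 and highest without MII oocyte 3. Tdrkh shares 2255 bases with Oaz3 on the other strand, whose own mean was 8.01 counts in batch A.

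In counts, 0 of the 9 members tested in batch A passed edgeR's quasi-likelihood test with more than a 2-fold change and a p below 0.05 after Benjamini-Hochberg adjustment, where 8.47% of all 12929 genes tested did (2.15% higher and 6.32% lower in MII oocytes). At an unadjusted p under 0.05 there were 4 of 9 members and 4441 of 12929 genes, and DESeq2 called 1 member, Piwil2, and 1125 genes. On the adjusted p alone 1 of 9 members passed, against 20.6% of all genes. The median log2 fold change of the members was −0.08 and that of all genes 0.01. Scaling by spike-ins, which only batch A held in number, brought the median log2 fold change of all genes from 0.01 to −0.72 and the calls from 278 higher and 817 lower to 131 higher and 3788 lower. With spike-in scaling, Ago2 (log2 fold change −1.30), Piwil2 (−2.59), Ddx4 (−1.36) and Mael (−1.22) were called lower, 4 of 9 members against 29.3% of all genes. Dicer1 (−0.47), Ago3 (−0.28), Mov10l1 (−0.38) and Pld6 (−0.36) changed sign without a call, and Tdrkh moved from −0.08 to −0.82 (adjusted p 0.00707), under 2-fold. Relative to the spike-in median of all genes, the 4 called genes were at −0.59, −1.87, −0.64 and −0.51. On the same scale Dicer1 was at 0.25, Ago3 at 0.44, Mov10l1 at 0.34, Pld6 at 0.35 and Tdrkh at −0.10. The 278 higher calls without spike-ins became 163 without MII oocyte 1 and 101 with HTSeq counts.

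The comparison of GV with MI oocytes in batch B addresses the first hours after meiosis resumes. None of the 8 genes tested passed it. Dicer1 was at 153, 372 and 421 CPM in the lowest, median and highest GV oocyte and at 311, 429 and 569 CPM in MI oocytes. Of the 15 MI oocytes, 8 lay above every GV oocyte, but the ranges overlapped and the log2 fold change was 0.27 (SE 0.14, edgeR adjusted p 0.468). Ago3 was at 53.2, 82.7 and 93.9 CPM in GV oocytes and at 45.0, 81.4 and 132 CPM in MI oocytes. The MI oocytes spread to both sides of the GV range, and the log2 fold change was 0.09 (SE 0.13, edgeR adjusted p 0.867).

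Ago2 was at 6.35, 18.6 and 26.1 CPM in GV oocytes of batch B and at 8.73, 13.9 and 28.4 CPM in MI oocytes, with 3 of 15 MI oocytes above the GV median (log2 fold change −0.34, SE 0.21, edgeR adjusted p 0.589). Ago1 had counts in 5 of 10 GV oocytes, reaching 1.25 CPM, and in 7 of 15 MI oocytes, reaching 1.90 CPM. It was again left out of the test, as was Piwil2, which was at 0, 0.448 and 7.36 CPM in GV oocytes and at 0, 1.14 and 4.29 CPM in MI oocytes. By RSEM, both genes thus had counts in some oocytes of each group and none in others. By HTSeq, Piwil2 had at least 1 count in each GV oocyte of batch B.

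Among the other piRNA pathway genes of batch B, Ddx4 was at 32.3, 55.9 and 85.2 CPM in GV oocytes and at 25.5, 56.0 and 106 CPM in MI oocytes. Mael was at 3.54, 12.4 and 16.8 CPM and at 2.23, 7.00 and 19.3 CPM, and 4 of 15 MI oocytes lay above the GV median. Mov10l1 ranged from 4.23 to 14.8 CPM in GV oocytes and from 1.16 to 16.8 CPM in MI oocytes. In all 3 genes the MI range enclosed the GV range. Tdrkh ranged from 42.9 to 70.9 CPM in GV and from 40.2 to 91.9 CPM in MI oocytes. Pld6 ranged from 0 to 9.22 CPM and from 0 to 6.22 CPM, at 0 in 3 of 10 GV oocytes and 1 of 15 MI oocytes. These 2 genes overlapped between the stages as well.

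In batch B, 0 of the 8 members tested passed edgeR's test, against 0.121% of 12419 genes (0.0886% higher and 0.0322% lower in MI oocytes). No member had an unadjusted p under 0.05, and DESeq2 called none. The members' log2 fold changes lay between −0.48 and 0.27, and their edgeR adjusted p-values were 0.468 or more. Leaving out MI oocytes 4, 8 and 9, or MI oocyte 15, gave no call either, though without MI oocytes 4, 8 and 9 Mov10l1 moved from −0.20 to −0.59 and Pld6 from −0.05 to −0.28. The whole comparison held few calls, with 15 genes by edgeR, 1371 genes at an unadjusted p under 0.05 and 116 genes by DESeq2.

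GV oocytes, the stage present in both batches, show how far levels may be read across them. Dicer1 was at 133, 200 and 256 CPM in batch A and at 153, 372 and 421 CPM in batch B, where 8 of 10 GV oocytes lay above every one of batch A (log2 fold change 0.82, SE 0.17, edgeR adjusted p 2.44e-04). Ago3 was higher in batch B by 0.49 (SE 0.15, edgeR adjusted p 0.0114), with 9 of 10 oocytes above every one of batch A. In CPM per kilobase Ago3 was instead lower in batch B (18.6 against 28.2), so its direction between batches depends on the scale. Its transcripts also differed in direction. For the main one, 9 of 10 GV oocytes of batch B lay above every one of batch A in CPM. For the short ENSMUST00000151179.7 9 of 10 lay below, and for the short ENSMUST00000155645.1 7 of 10 lay below and 1 above. Mael was lower in batch B by −0.98 (SE 0.37, edgeR adjusted p 0.0402), and all 10 GV oocytes of batch B lay below the 6 of batch A. Against 17.0% of 15083 genes, 0 of 10 members passed with the 2-fold threshold. On the adjusted p alone 3 of 10 members passed, as did 29.5% of all genes, and the same 3 had an unadjusted p under 0.05, as did 5814 of all genes. Mael lay just under 2-fold and was called by DESeq2 (−1.01, adjusted p 0.0244), with HTSeq counts (−1.02, 0.0420), with RLE scaling (−1.01, 0.0335) and without the filter (−1.09, 0.0141).

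The change to MII and the change to MI, each against the GV oocytes of its own batch, were compared by the difference between them. In edgeR, 0 of 10 members passed, against 4.03% of 15083 genes, and DESeq2 called none. Ago3 was the 1 of 10 members with an unadjusted p under 0.05, where 2671 of 15083 genes had one, its change to MII being larger than its change to MI by 0.45 (SE 0.20, edgeR adjusted p 0.229). Stage and batch cannot be told apart in this difference.

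The transcript counts of RSEM list 42 transcripts of the 10 genes, 39 of them with counts. In batch A, 1 of the 24 tested was called higher in MII oocytes, Mael-202, and 1 lower, a short transcript of Ago3. Over all 22461 transcripts tested, 1.35% were called higher and 4.23% lower. The median log2 fold change was 0.03 over the members' transcripts and 0.02 over all. Spike-in scaling was not run on transcripts. In batch B, 0 of the 20 tested were called by edgeR, against 0% of 22717 transcripts. There 1 member transcript, of Mov10l1 (ENSMUST00000015509.10), had an unadjusted p under 0.05 and DESeq2 called none, while over all transcripts 1615 had such a p and DESeq2 called 103. In a test of transcript usage, which compares a transcript's change with that of its gene (edgeR's diffSpliceDGE), 1 of 7 members passed in batch A, Mael, against 2.39% of 5478 genes. In batch B 0 of 6 members passed, against 0.0723% of 5536 genes, and none had an unadjusted p under 0.05; no other tool was run for usage. On simulated data the usage test made more false calls than its threshold allows, and the transcript tests found only a minority of the changes put in, so a missing call of a transcript says little.

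**Figure D2:**
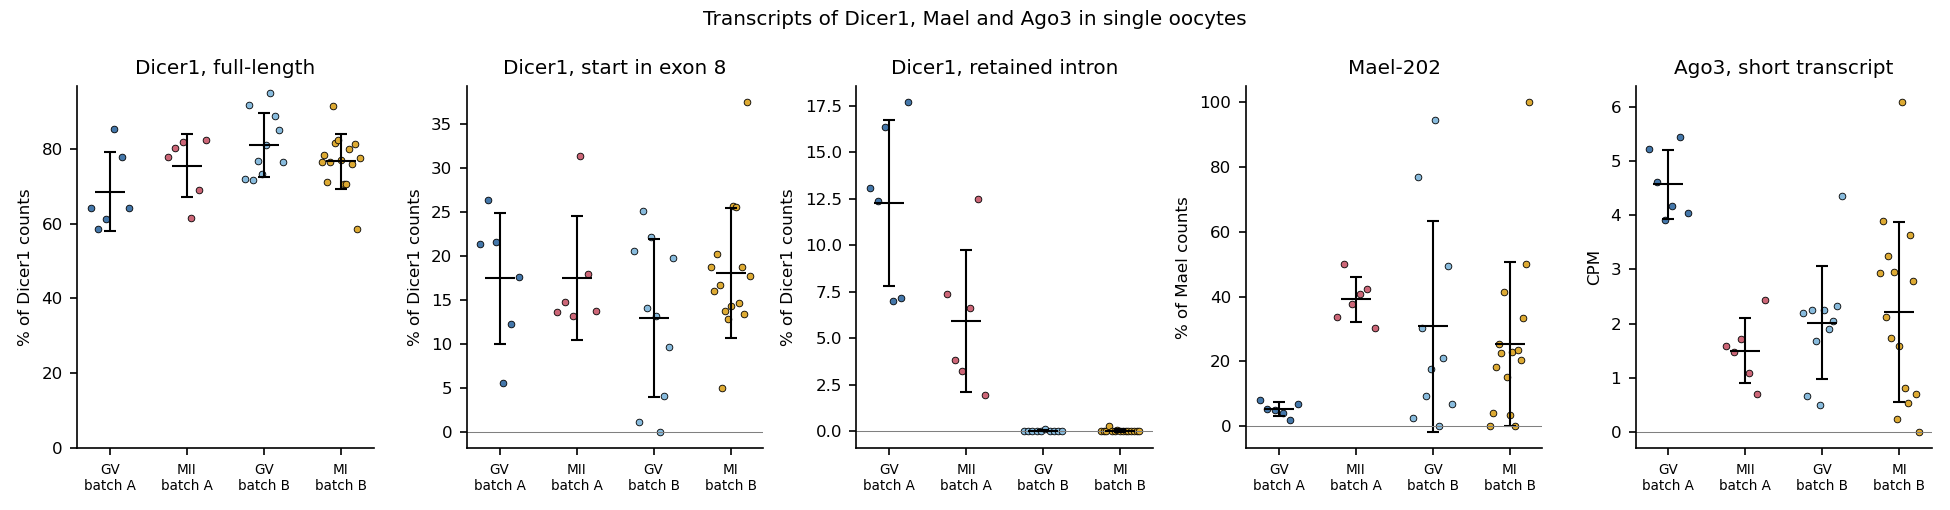
Share of the counts of Dicer1 (first 3 panels) and of Mael (Mael-202) held by single transcripts, in percent, and level of the short Ago3 transcript in CPM (last panel), in GV and MII oocytes of batch A and GV and MI oocytes of batch B. Points are oocytes and bars are group means with the SD; for Mael-202 and the short Ago3 transcript the GV and MII oocytes of batch A do not overlap.

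RSEM assigned most Dicer1 counts to the full-length coding transcript. Reads of a short form without an annotated transcript could be among them, so this share does not tell the forms apart. This transcript (ENSMUST00000041987.6), with 27 exons and 9851 bases, held 58.5%, 64.1% and 85.2% of the Dicer1 counts in the lowest, median and highest GV oocyte of batch A and 61.4%, 78.9% and 82.3% in MII oocytes. In batch B it held 71.6%, 78.9% and 94.9% in GV oocytes and 58.6%, 76.8% and 91.4% in MI oocytes. The groups overlapped in both batches. The mean share differed by 6.86 percentage points from GV to MII (exact permutation test, two-sided p 0.236 over 924 assignments) and by −4.52 percentage points from GV to MI (permutation test, two-sided p 0.170 over 100000 resamples), neither passing 0.05. The difference to MII was 10.2 percentage points without GV oocyte 4 (exact permutation p 0.0606) and 10.6 with counts divided by transcript length (exact permutation p 0.147). It was smallest without GV oocyte 2, at 4.87 percentage points (exact permutation p 0.416). In level, the full-length transcript was at 103, 132 and 164 CPM in GV and 155, 184 and 207 CPM in MII oocytes, where 5 of 6 MII oocytes lay above every GV oocyte. Its log2 fold change of 0.42 (SE 0.14, edgeR adjusted p 0.0715) did not pass the test.

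A second transcript (ENSMUST00000222528.1), annotated without a coding sequence, has 21 exons and 4724 bases and starts within exon 8 of the full-length one. It held 5.60%, 19.5% and 26.4% of Dicer1 counts in GV oocytes and 13.2%, 14.3% and 31.4% in MII oocytes of batch A, and 0%, 13.6% and 25.1% in GV and 5.04%, 16.7% and 37.5% in MI oocytes of batch B. These shares overlapped in both batches, with log2 fold changes of the transcript of 0.27 (SE 0.43, edgeR adjusted p 0.770) to MII and 0.71 (SE 0.50, edgeR adjusted p 0.899) to MI. The direction to MII turned to −0.06 without MII oocyte 4. A transcript annotated as a retained intron (ENSMUST00000222115.1), which starts within exon 22, differed in count between the batches. It held 7.00%, 12.7% and 17.7% in GV and 1.93%, 5.23% and 12.5% in MII oocytes of batch A, where 4 of 6 MII oocytes lay below every GV oocyte (log2 fold change −0.74, SE 0.53, edgeR adjusted p 0.442, range −1.19 to −0.50 with 1 oocyte left out). In batch B it had counts in only 1 of 10 GV oocytes and 2 of 15 MI oocytes. Mean counts per oocyte were 379 and 214 in the GV and MII oocytes of batch A and 0.377 and 1.34 in the GV and MI oocytes of batch B. The GV oocytes of the 2 batches differed as well, a difference that was not tested. By usage, Dicer1 had an edgeR adjusted p of 0.832 in batch A.

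None of the 6 annotated Dicer1 transcripts starts within intron 6 (chr12:104724071-104728332). A short form starting there thus has no transcript of its own in these counts, and its reads could only be assigned to the transcripts listed. Of these, only a retained-intron transcript (ENSMUST00000221293.1) has an exon over this intron, chr12:104721757-104728493, so reads inside the intron could fall on it alone. It held a mean of at most 4.13% of Dicer1 counts in any group. All 10 GV oocytes of batch B lay above all 6 of batch A in its share, a difference that was not tested. The junctions that separate the transcript starting in exon 8 from the full-length one are printed to show which reads can tell them apart. In each, the 15 bases before the junction are in lower case and the 15 bases of the downstream exon are in capitals, in the direction of transcription on the minus strand of GRCm38. The junctions run from chr12:104721971-104722052 to chr12:104720617-104720718 and on to chr12:104714774-104714906 in the transcript starting in exon 8 (ENSMUST00000222528), and from chr12:104721971-104722443 directly to chr12:104714774-104714906 in the full-length transcript (ENSMUST00000041987). Each occurs in 1 annotated transcript.
ENSMUST00000222528: agttgtcctaaacagGCCGTACTTTTCTGG
ENSMUST00000222528 next junction: gctttgtttcctgagATTGATAAAGGAAGC
ENSMUST00000041987: agttgtcctaaacagATTGATAAAGGAAGC

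Over the 12 oocytes of batch A, the genes whose log2 CPM followed Dicer1 most closely among 12864 genes with a mean of at least 10 counts were Ubn1 (Pearson r 0.981), Kmt2d (0.970) and Pcnt (0.966). These are descriptions of the 12 libraries of 1 batch, without a test.

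**Figure D3:**
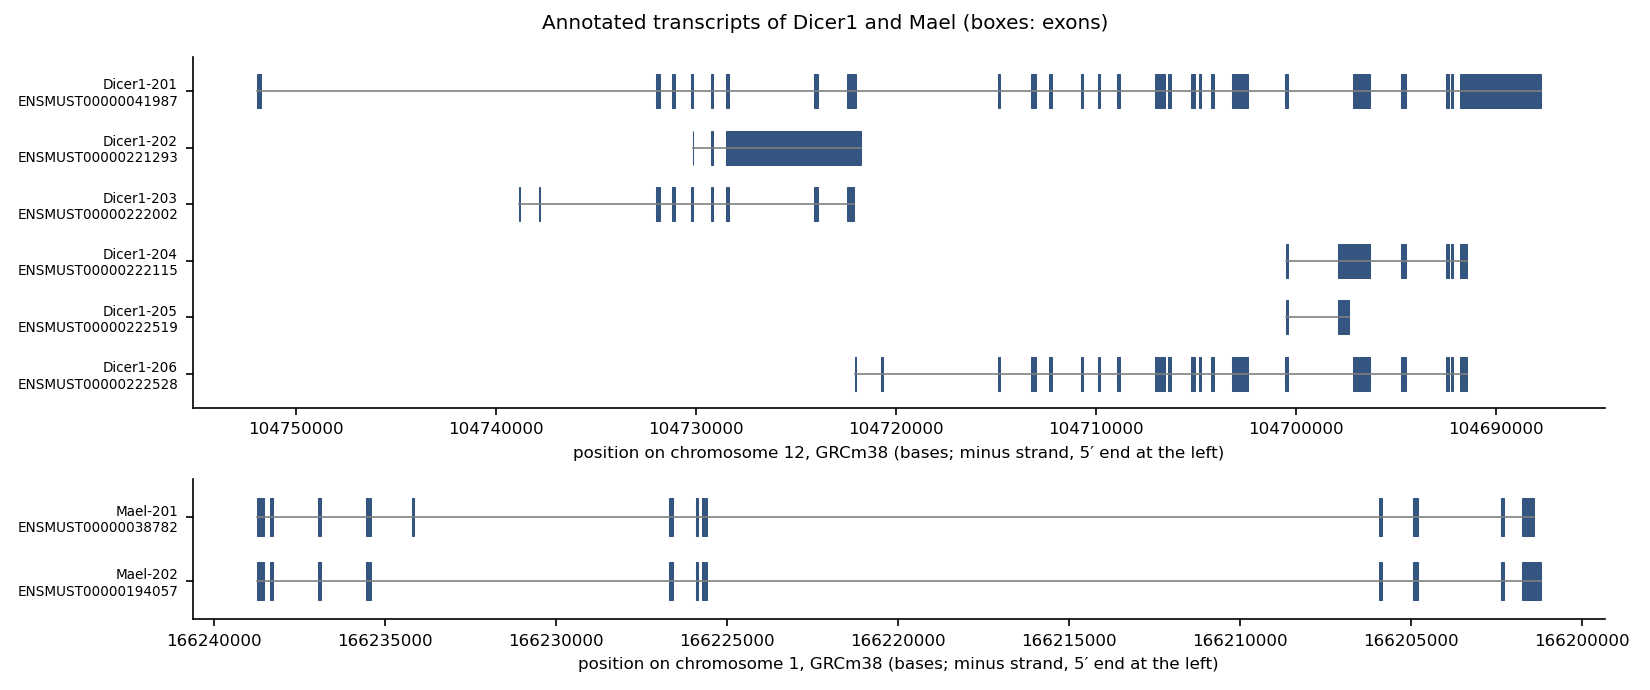
Annotated transcripts of Dicer1 and Mael on GRCm38 (horizontal axis, position in bases on chromosomes 12 and 1; boxes, exons; lines, introns; both genes on the minus strand, start at the left). ENSMUST00000222528 begins within exon 8 of the full-length ENSMUST00000041987, and Mael-202 lacks the fifth exon of Mael-201, chr1:166234165-166234206.

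Mael changed in transcript makeup between GV and MII oocytes while its total did not pass the test. Mael-202 held 1.89%, 4.96% and 8.10% of the Mael counts in the lowest, median and highest GV oocyte and 30.3%, 39.2% and 50% in MII oocytes. All 6 MII oocytes lay above all 6 GV oocytes. In level it was at 0.490, 1.20 and 1.46 CPM in GV and at 2.12, 6.04 and 11.1 CPM in MII oocytes, on mean counts of 16.0 and 82.8. It rose with a log2 fold change of 2.48 (SE 0.41, edgeR adjusted p 0.00268) and stayed called with each of the 12 oocytes left out, between 2.23 and 2.67. Relative to its gene the log2 change was 2.96 (edgeR adjusted p 0.00276), and the gene passed the usage test with an adjusted p of 0.00217. The other transcript, Mael-201, was at 16.4, 20.3 and 27.9 CPM in GV and 3.08, 10.0 and 20.4 CPM in MII oocytes, with 5 of 6 MII oocytes below every GV oocyte. Its log2 fold change of −1.10 (SE 0.33, edgeR adjusted p 0.0558) did not pass, but did with DESeq2 (−1.10, adjusted p 0.0141) and without MII oocyte 6 (−1.38, adjusted p 0.0204), in a range of 0.0204 to 0.119 with 1 oocyte left out.

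In batch B the share of Mael-202 varied widely within a stage, at 0%, 19.3% and 94.5% in the lowest, median and highest GV oocyte and at 0%, 22.6% and 100% in MI oocytes, on mean counts of 37 and 19. The 100% was MI oocyte 15, with 4 counts of Mael, and the next highest MI oocyte was at 50.1%. The stages overlapped fully (log2 fold change −0.89, SE 0.73, edgeR adjusted p 0.941). Of the 10 GV oocytes of batch B, 7 had a higher share than any GV oocyte of batch A, a difference that was not tested.

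Both Mael transcripts are annotated as coding. Mael-202 lacks exon 5 of Mael-201, a piece of 42 bases, and runs 184 bases further at its end. The junctions that tell them apart are given in the same form as those of Dicer1, with the downstream exon in capitals, on the minus strand of GRCm38. Mael-202 joins chr1:166235401-166235556 to chr1:166226566-166226690, and Mael-201 joins the same exons by way of chr1:166234165-166234206.
Mael-202: gttttatccatccagGTGATTCTAGTCACA
Mael-201: gttttatccatccagGTGAAATTCCACGAG
Mael-201 next junction: attgccaggctgcaaGTGATTCTAGTCACA

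For Ago3, a short transcript fell from GV to MII oocytes while the main one did not. The short transcript (ENSMUST00000151179.7, 4 exons, 625 bases), annotated without a coding sequence, was at 3.91, 4.40 and 5.44 CPM in the lowest, median and highest GV oocyte of batch A and at 0.691, 1.54 and 2.44 CPM in MII oocytes. All 6 MII oocytes lay below all 6 GV oocytes. It fell with a log2 fold change of −1.68 (SE 0.32, edgeR adjusted p 0.00647) on mean counts of 64.8 and 18.6, and was called with each oocyte left out (−1.85 to −1.52), but not without the filter on low counts (adjusted p 0.0597) or with replicate number as a block (0.0631). The main transcript (ENSMUST00000069097.12), coding and holding most Ago3 counts, was at 33.5, 39.0 and 48.2 CPM in GV and 56.2, 60.1 and 81.3 CPM in MII oocytes, again without overlap. Its log2 fold change was 0.60 (SE 0.14, edgeR adjusted p 0.0145), under 2-fold. The usage test gave an edgeR adjusted p of 0.132 for the gene and of 0.0878 for the short transcript, so that the shift within Ago3 did not pass. Of the 4 exons of the short transcript, exons 2 and 3 also belong to the main one and exon 4 (chr4:126375678-126375940, 263 bases) lies in none of its exons. In batch B, the short transcript was at 0.496, 2.13 and 4.35 CPM in GV and at 0, 2.11 and 6.08 CPM in MI oocytes, which overlapped, and 9 of 10 GV oocytes of batch B lay below every GV oocyte of batch A. A second short transcript without a coding sequence (ENSMUST00000155645.1, 3 exons, 690 bases), which has the same exon 2, went the other way in batch A. Its log2 fold change was 0.73 (SE 0.26, edgeR adjusted p 0.0949), which did not pass, and 5 of 6 MII oocytes lay above every GV oocyte.

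Other genes of these pathways were described by lists. Of 19 tested genes of microRNA and siRNA processing and loading in batch A, 0 were called higher and 1 lower, with a median log2 fold change of −0.01 against 0.01 over all genes. Over all genes 2.15% were called higher and 6.32% lower, beside 0 higher and 1 or 2 lower in each of the 4 lists here. The called gene was Tut7, which adds uridines to RNA ends, at 42.8, 78.7 and 162 CPM in GV and 30, 32.5 and 40.0 CPM in MII oocytes, without overlap (log2 fold change −1.44, SE 0.25, edgeR adjusted p 0.00110). With HTSeq counts its direction turned (0.16, adjusted p 0.711). Per length, the most abundant gene of the list in each group was Hsp90aa1, a chaperone that helps load argonautes, at 466 ± 121 CPM per kilobase in GV and 349 ± 40.8 in MII oocytes of batch A (SD, n = 6), against means of 1739 in GV and 2085 in MI oocytes of batch B. Of 14 tested argonaute partners and effectors, 0 were called higher and 2 lower (median 0.14). These were Trim71, a ubiquitin ligase and RNA repressor, at 23.8, 38.1 and 63.2 CPM in GV and 18.7, 21.4 and 22.9 CPM in MII oocytes, and Mov10, a helicase related to Mov10l1, at 1.94, 3.57 and 4.77 CPM and 0.721, 1.47 and 2.53 CPM. Their log2 fold changes were −1.05 (SE 0.21, edgeR adjusted p 0.00292) and −1.19 (SE 0.34, edgeR adjusted p 0.0226). Trim71 did not overlap between the stages, and Mov10 did. Fxr1 had the highest mean per length in each of the 4 groups, within the spread of the next gene in batch A, at 123 ± 43.9 CPM per kilobase in GV and 138 ± 17.5 in MII oocytes of batch A (SD, n = 6), against means of 359 in GV and 340 in MI oocytes of batch B.

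Of 24 tested further piRNA pathway genes, 0 were called higher and 2 lower in batch A, with a median of −0.22. Pnldc1, the nuclease that trims piRNA precursors, was at 5.32, 7.22 and 11.7 CPM in GV and 2.08, 2.77 and 3.79 CPM in MII oocytes. All 6 MII oocytes lay below every GV oocyte (log2 fold change −1.52, SE 0.26, edgeR adjusted p 9.32e-04). Gpat2, a mitochondrial protein of piRNA processing, was at 0.927, 1.47 and 3.23 CPM and at 0.0869, 0.282 and 1.68 CPM (log2 fold change −1.68, SE 0.57, edgeR adjusted p 0.0442). Its groups overlapped in 1 MII oocyte. Gtsf1, a zinc finger partner of PIWI proteins and the most abundant of the list per length in batch A (in batch B Tdrd3 had a higher mean), was at 161 ± 31.8 CPM per kilobase in GV and 87.4 ± 19.9 in MII oocytes (SD, n = 6), with a log2 fold change of −0.93 (SE 0.18, edgeR adjusted p 0.00184) just under 2-fold. Of 29 tested genes of chromatin silencing of transposons, 0 were called higher and 1 lower (median 0.11). Morc1, an ATPase of transposon silencing, was at 8.45, 10.8 and 15.8 CPM in GV and 4.48, 4.99 and 5.51 CPM in MII oocytes, without overlap (log2 fold change −1.23, SE 0.20, edgeR adjusted p 5.85e-04). Zfp57 had the highest mean of these per length in each group, within the spread of the next gene except in GV oocytes of batch A. In batch A it was at 335 ± 74.2 CPM per kilobase in GV and 289 ± 42.8 in MII oocytes (SD, n = 6). Across these lists the call of Gpat2 was lost with any of 10 oocytes left out, that of Mov10 without GV oocyte 6 (adjusted p 0.0501) or MII oocyte 1 (0.0513), and that of Trim71, at −0.95 and −0.87, without GV oocyte 2 or 5. With all 37 oocytes in 1 fit and batch as a covariate, Tut7 (adjusted p 0.0590), Mov10 (0.509), Pnldc1 (0.101) and Gpat2 (0.467) were not called, and Trim71 was just under 2-fold (−0.99).

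In batch B no gene of these 4 pathway lists was called by edgeR, of 19, 14, 23 and 28 tested, with 2, 0, 4 and 6 at an unadjusted p under 0.05, where 1371 of 12419 genes had one, and medians of 0.07, 0.06, 0.06 and 0.16 against 0.02 over all genes. The oocyte markers, given for comparison, had 0 called higher and 5 of 12 lower in batch A (median −0.63), with Zp3 at −2.21 (SE 0.22, edgeR adjusted p 1.05e-05), Zp2 at −2.14 (SE 0.29, 1.11e-04), Zp1 at −1.39 (SE 0.18, 7.69e-05) and Ooep at −1.04 (SE 0.19, 0.00159), and 0 of 12 called in batch B.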

How the data were processed

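The authors deposited, for each oocyte, expected counts per gene and per transcript (RSEM) and whole counts per gene (HTSeq), all without normalization. According to the submitters' processing notes, reads were trimmed with Trim Galore 0.6.4, aligned with STAR 2.7.6a to mm10 and counted with HTSeq 0.12.4 and RSEM 1.3.1. The annotation was GENCODE VM20. Here names and positions came from GENCODE M21 on GRCm38 (mm10), where 54723 of 54752 gene identifiers were found. Strandedness of the counting is not given in the sources used here, and Smart-seq2 does not mark strand. The members and lists were chosen with earlier results of these data known.

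Expected counts were rounded, and 92 spike-in sequences were left out. Features passing filterByExpr were fitted with edgeR 4.0.16 (R 4.3.3; TMM, glmQLFit, glmQLFTest) on all features. A call required more than a 2-fold change and a p below 0.05 after Benjamini-Hochberg adjustment. Alternatives were no filter, RLE, DESeq2 1.42.0, HTSeq counts, spike-ins as library size, batch as covariate, a replicate block, each oocyte of batch A left out, and MI oocytes left out. For transcripts of batch B and for the fit of 4 groups, leaving out MI oocytes was chosen after seeing the data. CPM shown in the text used TMM over all 37 oocytes, and the level per kilobase is the sum over transcripts of CPM by length. Shares of the full-length Dicer1 transcript were compared by permutation. Scripts were tested on simulated data; there the usage test made more false calls than its threshold allows, and the transcript tests missed most changes.

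All members are named. Their transcripts are named where called, and those of Dicer1 with a mean share of at least 5% in any group. Of each list, up to 4 called genes per direction with the smallest adjusted p and the most abundant gene are named. Mael-201, the main transcript of Ago3 and the transcript of Mov10l1 named for batch B fall outside this rule and were chosen after their values were seen.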

Additional observations from a re-analysis of the deposited data

Results flagged for a closer look

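Of 39 groups of values examined, all of GV or MII oocytes, 6 held 1 oocyte far from the others of its group. The rule used flags about 1 in 20 by chance if values are normally distributed. Its rate for low, skewed counts such as those of Ago1, Piwil2 and Pld6 was not measured. In GV oocytes of batch A, Ago1 reached 0.960 CPM in oocyte 3, with the next oocyte at 0.330 CPM. The other 5 lay in GV oocytes of batch B. Ago2 was lowest in oocyte 7 at 6.35 CPM, with the next at 15.8 CPM. Oocyte 3 held the highest Piwil2 value, 7.36 CPM against 0.744 CPM in the next oocyte, and the highest Pld6 value, 9.22 CPM against 3.25 CPM. Mov10l1 reached 14.8 CPM in oocyte 2, with the next at 8.51 CPM. The short Ago3 transcript reached 4.35 CPM in oocyte 10, with the next at 2.33 CPM. The 15 MI oocytes were not examined in this way; among them Ago2 reached 28.4 CPM in oocyte 4, with the next at 19.3 CPM, and Mov10l1 16.8 CPM in oocyte 9, with the next at 9.74 CPM.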

How the results depend on the processing

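For GV against MII in batch A, the number of members called moved from 0 to 1 without the filter, with DESeq2 and without the fold threshold, and to 4 with spike-in scaling. With 1 oocyte left out it was 0 to 1. Over all genes the calls moved from 1095 to 1859 without the filter, 2662 without the fold threshold, 3919 with spike-in scaling and 653 with batch as a covariate. Member transcripts called moved from 2 to 1 without the filter. For GV against MI, the 15 genes called became 40 without the filter, 116 with DESeq2, 107 with batch as a covariate, 36 without MI oocytes 4, 8 and 9, and 0 with HTSeq counts, with or without these oocytes. For GV oocytes between batches, the members called moved from 0 to 1 without the filter, with RLE, with HTSeq counts and with DESeq2, and to 3 without the fold threshold. Every other setting moved a number of members called by at most 1.

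Directions turned with spike-in scaling for Dicer1 (−0.47), Ago3 (−0.28), Mov10l1 (−0.38) and Pld6 (−0.36), and with HTSeq counts for Tdrkh (0.0525) and Tut7 (0.16). In batch B, Pld6 turned with HTSeq counts (0.0294), without MI oocyte 15 (0.0278) and with the block (0.89). The Dicer1 transcript starting in exon 8 ranged from −0.0631 to 0.40 with 1 oocyte left out. The cause was not tested.

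With replicate number as a block, member transcripts called were 1, as the short Ago3 transcript (adjusted p 0.0631) was lost, and genes called in GV against MI were 0. Transcripts called in GV against MII fell from 1252 to 532. The calls of Mov10, Trim71 and Gpat2 were lost as well. Same-numbered oocytes are not paired: 1 of 6 pairs in batch A (r −0.308 to 0.334) and 1 of 10 in batch B (−0.132 to 0.101) correlated over 0.1, and 1 and 0 GV oocytes were closest to their own number. Counts of Ago1, Piwil2 and Pld6 were low, and how far depth limited them was not tested.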
